A study of Mus musculus with 32 samples.

Results

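The genes described here are 42 genes of the G2 phase and mitosis, chosen by name from the 30644 genes of a count table. All 42 were found in the table, and all 42 passed the filter on low counts that left 18676 genes to test. RNA was measured in multipotent progenitors (MPP) of the bone marrow of C57BL/6 mice, sorted as the subsets MPP2, MPP3, MPP4 and MPP1. The mice carried 2 copies (1013/1013), 1 copy (+/1013) or no copy (wild type) of the Cxcr4 1013 allele, which shortens the intracellular tail of CXCR4, a chemokine receptor, models WHIM syndrome and is present in every cell of the animal. Each of the 4 subsets had 2 libraries from 1013/1013, 3 from +/1013 and 3 from wild-type mice, 32 libraries in 12 groups. Each library was made from a pool of 3000 sorted cells, and the labels do not say how many animals gave a pool, or that the libraries of a group came from separate animals. The p-values below therefore measure the spread between these libraries, which may be technical.

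Genes of this program are transcribed as cells leave S phase and are needed until they divide. Cyclins A and B activate the kinase CDK1 to start mitosis, the Aurora and Polo kinases build the spindle, the checkpoint proteins hold the anaphase-promoting complex until each kinetochore is attached, and kinesins and the cytokinesis machinery then part the chromosomes and the cells. In blood progenitors these genes are read as a sign of cycling, since stem cells at the top of the hierarchy are mostly quiescent while MPP2, MPP3 and MPP4 divide more often. In a pool of cells, fewer cells in G2 or mitosis and less RNA in each of them cannot be told apart.

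Most such genes are known to share promoter elements. The cell cycle genes homology region (CHR) is bound by the DREAM and B-Myb-MuvB complexes, and CCAAT boxes by NF-Y. RefSeq promoter sequences (GRCm38.p6, 250 bases before to 50 after the start) were matched by symbol for 37 of the 42 members. The CHR was searched as TTTGAA or TTCGAA and the CCAAT box as CCAAT, each on both strands. A CHR was found in 30 of the 37 promoters (81.1%), against 14.2% of the 11814 promoters of other tested genes. A CCAAT box was found in 28 (75.7%), against 38.2%, and both words in 26 (70.3%), against 5.77%. With only the 250 bases before the start, a CHR was found in 14 of 37 (37.8%), against 12.7% of the others. A match is a description of the letters in this window.

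The 6 windows below, of 170 bases before to 30 after the start, show what the members share and where they differ, with CHR and CCAAT words of either strand in capitals. Ccnb2, Top2a and Cdk1 hold more than a single word of each, Cenpa and Kif11 hold both, and Ccnb1 holds CCAAT boxes and no CHR word. Their positions are chr9:70421525-70421724 (minus strand) for Ccnb2, chr11:99024160-99024359 (minus strand) for Top2a, chr10:69352883-69353082 (minus strand) for Cdk1, chr5:30666716-30666915 (plus strand) for Cenpa, chr19:37376212-37376411 (plus strand) for Kif11 and chr13:100786457-100786656 (minus strand) for Ccnb1.
Ccnb2: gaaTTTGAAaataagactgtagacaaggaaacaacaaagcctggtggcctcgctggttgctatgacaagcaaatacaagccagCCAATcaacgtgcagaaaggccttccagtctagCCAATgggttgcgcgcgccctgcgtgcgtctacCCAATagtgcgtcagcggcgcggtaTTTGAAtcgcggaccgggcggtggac
Top2a: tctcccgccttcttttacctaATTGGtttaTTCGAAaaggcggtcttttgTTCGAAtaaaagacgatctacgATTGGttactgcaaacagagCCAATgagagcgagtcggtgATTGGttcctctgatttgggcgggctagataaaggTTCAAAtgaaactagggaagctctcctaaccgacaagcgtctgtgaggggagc
Cdk1: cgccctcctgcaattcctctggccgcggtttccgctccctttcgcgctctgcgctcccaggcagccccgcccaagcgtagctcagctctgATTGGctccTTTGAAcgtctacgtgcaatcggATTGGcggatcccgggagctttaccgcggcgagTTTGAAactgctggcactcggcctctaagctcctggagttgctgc
Cenpa: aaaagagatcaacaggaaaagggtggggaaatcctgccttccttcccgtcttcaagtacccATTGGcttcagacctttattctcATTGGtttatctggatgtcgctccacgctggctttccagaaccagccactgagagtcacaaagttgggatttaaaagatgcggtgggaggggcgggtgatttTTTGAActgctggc
Kif11: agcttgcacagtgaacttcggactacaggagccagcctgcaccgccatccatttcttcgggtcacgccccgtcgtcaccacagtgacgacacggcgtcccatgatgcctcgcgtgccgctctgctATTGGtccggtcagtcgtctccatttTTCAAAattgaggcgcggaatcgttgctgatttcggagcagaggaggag
Ccnb1: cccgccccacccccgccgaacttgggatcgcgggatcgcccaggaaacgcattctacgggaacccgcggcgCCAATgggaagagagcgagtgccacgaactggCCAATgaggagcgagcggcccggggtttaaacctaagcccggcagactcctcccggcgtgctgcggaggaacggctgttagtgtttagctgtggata

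Libraries held 13016038 to 37050983 counts, and levels are given as CPM, counts scaled to library size with TMM factors. In most libraries the sort markers followed the labels. Flt3 was highest in MPP4 (181 to 631 CPM). Slamf1, which encodes CD150, had medians of 21.2 CPM in MPP2 and 36.3 CPM in MPP1 and of 0 in MPP3 and MPP4. In the library MPP2 +/1013 3, Slamf1 was at only 0.0405 CPM. Cd48, which encodes a surface protein that MPP1 is usually sorted without, was at 144 and 226 CPM in the MPP1 libraries wild type 1 and +/1013 1, against 11.2 to 29.03 CPM in the other 6, so the comparisons with MPP1 are given with and without those libraries. In 8 libraries, all with a library number that is a multiple of 3 and none of them MPP1, the immediate-early gene Fos was at 64.6 to 949 CPM, against 1381 to 9321 CPM in the other 24. In 7 of those 8, the neutrophil gene S100a8 was at 209 to 763 CPM, against at most 28.6 CPM in all other libraries. Libraries also differed in how counts fell off with gene length: the slope of log2 CPM per doubling of coding length, relative to the mean library, ran between -0.85 in MPP2 1013/1013 1 and 0.47 in MPP1 1013/1013 2.

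Per kilobase of transcript, the members covered a wide range of levels. Birc5, which encodes survivin, a subunit of the chromosomal passenger complex, was highest with a mean of 250.02 CPM per kb over the 32 libraries, followed by the checkpoint gene Mad2l1 (239.7), the centromeric histone gene Cenpa (161) and the cyclin gene Ccnb2 (138). These were the 4 members over 100 CPM per kb. Cdc20, the activator of the anaphase-promoting complex, had 94.7, Aurkb, the Aurora kinase of the passenger complex, 83.1, Cdk1 70.8, Ccna2 69.6, Aurka, the Aurora kinase of the spindle poles, 68.5 and Ccnb1 58.4 CPM per kb. A group of 18 members was under 10 CPM per kb, among them Cdc25b, the phosphatase that activates CDK1, at 9.96, the topoisomerase gene Top2a at 8.87, and Kif11, the motor that pushes the spindle poles apart, at 4.00. The lowest were the kinetochore motor gene Cenpe (0.738), the chromokinesin gene Kif4 (0.618) and the proliferation marker Mki67 (0.471), and Cenpe and Mki67 have the longest coding sequences of the 42, 7413 and 9531 bases.

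**Figure D1:**
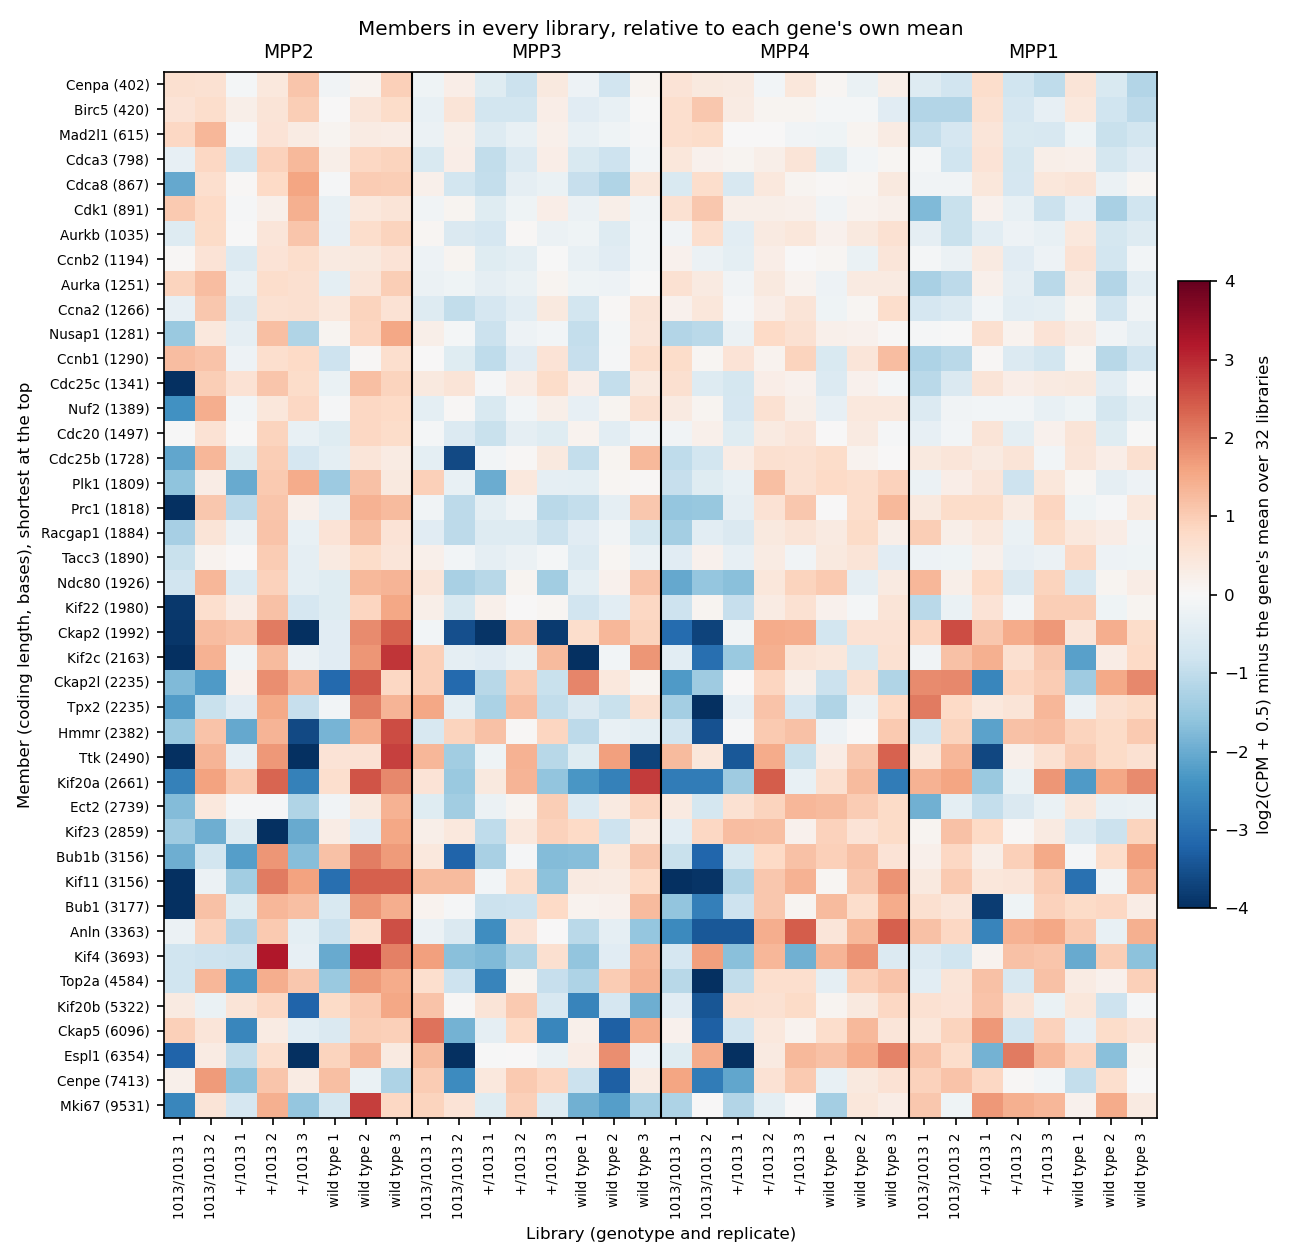
Level of each of the 42 genes (rows, shortest coding sequence at the top) in each of the 32 libraries (columns, by subset and genotype), as log2 CPM minus the gene's mean over libraries. The shortest genes and the longer ones differ in which libraries are high, and MPP2 1013/1013 1 and MPP4 1013/1013 2 are low for most long genes.

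The members did not all vary together across the 32 libraries, which differ in subset, genotype and depth, so the correlations below include those differences. As a description, the correlation of log2 CPM over the 861 pairs of members had a median of 0.29 and ran between -0.53 and 0.88, with 182 pairs under 0 and 196 over 0.5. Against the mean of the other 41, it was highest for Prc1 (0.87), which bundles microtubules of the spindle midzone, and for the spindle gene Nusap1 (0.86). It was lowest for Cdk1 (-0.29), Birc5 (-0.22), Mad2l1 (-0.18) and Cenpa (-0.17). Those 4 have coding sequences under 1000 bases, as do Cdca3, a mitotic entry factor (0.24), and Cdca8, which encodes the passenger subunit borealin (0.58). Among the 15 pairs of those 6 short genes the median correlation was 0.72, against 0.44, 0.28 and 0.30 among pairs of members of 1000 to 2000, 2000 to 3000 and over 3000 bases.

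Among the genes outside the set whose log2 CPM most resembled the mean of the 42, over all 32 libraries, were Canx (r = 0.88), Lrrc59 (0.86), Hspa5 (0.85), Ezh2 (0.85), Acsl5 (0.85), Sf3b1 (0.85), Oxct1 (0.84), Ncaph2 (0.84) and Nmt1 (0.84). Ncaph2 encodes a condensin subunit and Ezh2 a histone methyltransferase, while Canx and Hspa5 encode chaperones of the endoplasmic reticulum.

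The median summed level of the 42 genes was highest in MPP2. It ran between 2712 and 5615 CPM in the 8 MPP2 libraries (median 4978), between 2033 and 3614 in MPP3 (median 2774), between 2901 and 4126 in MPP4 (median 3762) and between 2130 and 3854 in MPP1 (median 2480). The subsets overlapped, and the 2 highest MPP1 libraries were those with high Cd48, at 3678 and 3854 CPM. By genotype, the means of the sums in MPP2 were 4502 CPM in 1013/1013, 4223 in +/1013 and 4531 in wild type, and in MPP4 3751, 3582 and 3652 in the same order. In MPP3 they were 2856, 2641 and 2910 CPM, and in MPP1 2359, 3063 and 2773 CPM, in the same order. The sum is carried by the abundant, mostly short genes. The mean of log2 CPM, in which each member counts alike, was not highest in MPP2: its medians were 4.89 in MPP2, 4.37 in MPP3, 5.16 in MPP4 and 4.95 in MPP1. It ran between 2.56 in MPP2 1013/1013 1 and 6.10 in MPP2 wild type 3, both MPP2 libraries.

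**Figure D2:**
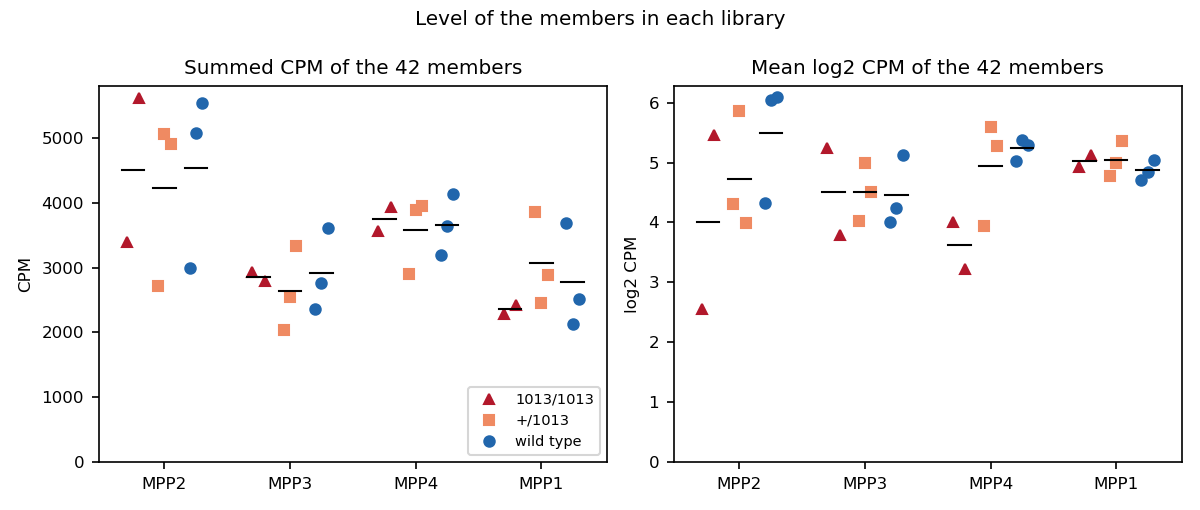
Summed CPM (linear axis) and mean log2 CPM of the 42 genes in each library, by subset and genotype. Points are libraries and black lines are group means; the median summed level is highest in MPP2 (4978 CPM), and the median of mean log2 CPM in MPP4 (5.16, against 4.89 in MPP2 and 4.95 in MPP1).

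The first comparison asked how the program differed between the downstream subsets and MPP1, the subset nearest to the stem cell, averaged over the 3 genotypes. In MPP2, 7 of the 42 members rose and none fell, by edgeR's quasi-likelihood test with Benjamini-Hochberg adjustment over the 18676 genes; of all genes tested, 6.73% were called, 5.01% higher. The 7 were the kinase that drives mitosis and its cyclins (Cdk1, Ccnb1, Ccna2), both Aurora kinases with the passenger subunit survivin (Aurka, Aurkb, Birc5) and the checkpoint protein Mad2l1. Their log2 differences lay between 0.82 and 1.38. All 7 are abundant, with means of 131 to 414 CPM over the 32 libraries. Over the 42 members, the rank correlation of the log2 difference with mean CPM was 0.68, and with coding length -0.63. A role whose members are at low levels and were not called is therefore not shown to be unchanged. Over the whole set, 31 of 42 were positive with a median of 0.25, beside a median of -0.16 over all genes.

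Cdk1 was at 227 to 752 CPM in MPP2 libraries (median 390.1), against 83.0 to 315 CPM in MPP1 libraries (median 158), a log2 difference of 1.38 (SE 0.22, adjusted p = 0.00151). Ccnb1, the cyclin that activates CDK1 at mitotic entry, was at 72.3 to 301 CPM (median 204) in MPP2, against 54.5 to 135 CPM (median 75.5) in MPP1, a difference of 1.27 (SE 0.30, adjusted p = 0.0146). Ccna2, the cyclin of S phase and G2, was at 129.8 to 409.7 CPM (median 291) in MPP2, against 114 to 209 CPM (median 145) in MPP1, a difference of 0.89 (SE 0.24, adjusted p = 0.0254). The ranges of all 3 overlapped: 6 of 8 MPP2 libraries lay above every MPP1 library for Cdk1, 5 for Ccnb1 and 6 for Ccna2. How many of all genes have libraries outside the MPP1 range in this way was not counted, here or in the comparisons below. Ccnb2, the other B-type cyclin, was at 140.5 to 330.3 CPM (median 284) in MPP2, against 124 to 303 CPM (median 183) in MPP1, and did not pass (0.42, adjusted p = 0.181).

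Of the mitotic kinases and the passenger complex, Aurka was at 91.5 to 280.0 CPM (median 191) in MPP2, against 47.97 to 154 CPM (median 74.1) in MPP1, a log2 difference of 1.24 (SE 0.23, adjusted p = 0.00370). Aurkb was at 105 to 325 CPM (median 231) in MPP2, against 82.2 to 202 CPM (median 116) in MPP1, a difference of 0.82 (SE 0.24, adjusted p = 0.0385). Birc5 was at 220.2 to 434 CPM (median 313) in MPP2, against 95.1 to 329.6 CPM (median 131) in MPP1, a difference of 1.08 (SE 0.22, adjusted p = 0.00678). The highest MPP1 library was 1 of the 2 with high Cd48 for each of the 3 genes. Against the other 6 MPP1 libraries, 7 of 8 MPP2 libraries lay above all of them for Aurka, 6 for Aurkb and 8 for Birc5. The share of all genes that separate in this way was not counted. Plk1, the Polo-like kinase, had medians of 29.2 CPM in MPP2 and 22.01 in MPP1, a difference of 0.25 that did not pass (adjusted p = 0.885).

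Of the checkpoint and kinetochore genes, Mad2l1 was at 372 to 978 CPM (median 488) in MPP2, against 198 to 539 CPM (median 244) in MPP1, a log2 difference of 1.07 (SE 0.16, adjusted p = 0.00151). All 8 MPP2 libraries lay above the 6 MPP1 libraries with low Cd48. The highest MPP1 library was +/1013 1, which has high Cd48. The share of all genes that separate in this way was not counted. Cenpa was at 199 to 469 CPM in MPP2, against 96.4 to 359 CPM in MPP1, and missed the threshold (0.87, adjusted p = 0.0584), as did Nuf2, which encodes a microtubule-binding kinetochore subunit (0.83, adjusted p = 0.132). The checkpoint kinase genes Bub1 (0.38) and Bub1b (-0.56) and the kinetochore gene Ndc80 (0.12) did not pass, with adjusted p of 0.902, 0.659 and 1. Of the motors and cytokinesis genes none passed, and their log2 differences had both signs, with Kif23, a subunit of centralspindlin, at -1.35 (adjusted p = 0.107) and Kif4 at 1.15 (adjusted p = 0.663). Mki67 and Top2a were at -0.50 and 0.35, with adjusted p of 0.769 and 0.874. The negative averages of Kif23, Bub1b and Mki67 do not hold in wild type alone. There the differences were 0.68, 0.75 and 0.87 in that order, none past the threshold.

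**Figure D3:**
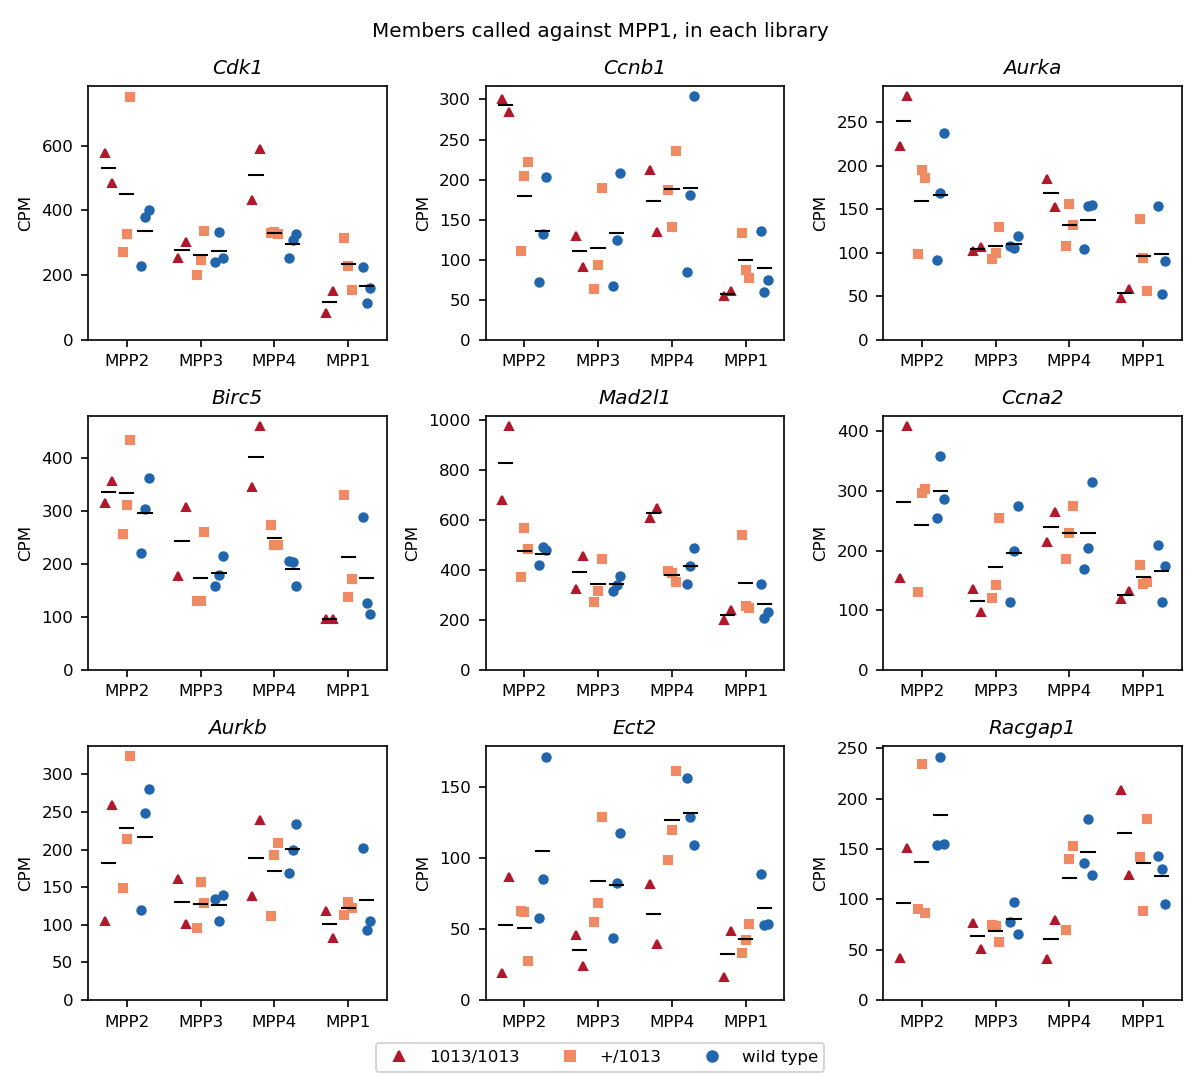
CPM of the 9 members called in a comparison between subsets (Cdk1, Ccnb1, Aurka, Birc5, Mad2l1, Ccna2, Aurkb, Ect2 and Racgap1) in each library, by subset and genotype, with the mean of each group of libraries as a line. For Cdk1 and Mad2l1 the MPP2 and MPP4 libraries lie above most MPP1 libraries, and the highest MPP1 library is +/1013 1, 1 of the 2 with high Cd48.

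Without the 2 MPP1 libraries with high Cd48, 10 members were called in MPP2 against MPP1, the 7 and Ccnb2 (0.64), Cenpa (1.33) and Cdca3 (0.97). For this and the other fits that leave libraries out, the share of all genes called is not given. Their counts describe the fits and are no result about the members. The MPP2 set holds 3 of the 8 libraries with low Fos, and without those 8 libraries 5 of the 7 kept the call (Cdk1, Ccnb1, Aurka, Birc5, Mad2l1), while Cdc25c, Bub1 and Prc1 were called lower and the median of the 42 was -0.38. In that fit MPP2 1013/1013 rests on a library in which Cdc25c and Bub1 have no count. Leaving out MPP1 1013/1013 1 or 2 left 4 calls. Immune and erythroid transcripts also differed. The summed level of 8 T and NK cell markers was 221 to 987 CPM in MPP2, against 74.4 to 486 CPM in MPP1. Of these 8, 5 were at 0 in all MPP1 libraries, Cd3d and Cd8a among them. The sum of 10 erythroblast markers was 106 to 2050 CPM, against 51.6 to 119 CPM. That of 8 plasma cell markers was 5.28 to 1769 CPM (median 894), against 0.434 to 730 CPM (median 3.67). That of 10 neutrophil markers was 3.18 to 3416 CPM, against 0.579 to 37.6 CPM. The part of these transcripts in the result was not tested.

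In MPP4, 6 of the 42 members rose against MPP1 and none fell, while 14.7% of all genes tested were called, 7.59% higher. The 6 were Cdk1, Ccnb1, Aurka, Birc5 and Mad2l1, which were also called in MPP2, and Ect2, which encodes the exchange factor that activates RhoA for cytokinesis. The set was split evenly, 21 positive and 21 negative, with a median of -0.005 beside -0.15 over all genes. Over the 42 members, the rank correlation of the log2 difference in MPP4 with mean CPM was 0.60, and with coding length -0.53. The comparisons of MPP2 and MPP4 with MPP1 share the MPP1 libraries.

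Cdk1 was at 252 to 592 CPM (median 329) in MPP4, against 83.0 to 315 CPM (median 158) in MPP1, a log2 difference of 1.16 (SE 0.20, adjusted p = 0.000847). Ccnb1 was at 84.2 to 304 CPM (median 184) in MPP4, against 54.5 to 135 CPM in MPP1 (1.20, adjusted p = 0.0103). Ect2 was at 39.1 to 161 CPM (median 114) in MPP4, against 16.4 to 88.9 CPM (median 50.6) in MPP1 (1.16, adjusted p = 0.0236). For each of these 3 genes, 6 of 8 MPP4 libraries lay above every MPP1 library. Mad2l1 was at 345 to 648 CPM (0.77, adjusted p = 0.00301), Aurka at 104 to 185 CPM (0.86, adjusted p = 0.0124) and Birc5 at 159 to 459.9 CPM (0.81, adjusted p = 0.0173) in MPP4. The ranges of these 3 overlapped those of MPP1 given above, while all 8 MPP4 libraries lay above the 6 low-Cd48 MPP1 libraries for Mad2l1 and Aurka. The highest MPP1 values of Mad2l1 and Aurka are those of the high-Cd48 libraries, which that count leaves out. The share of all genes that separate in this way was not counted.

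At the other end of the set in MPP4 were spindle motors and spindle-associated genes, none of which passed. Ckap2, a microtubule-associated spindle gene, was at 0.113 to 21.99 CPM (median 9.03) in MPP4, against 10.7 to 48.4 CPM (median 19.01) in MPP1 (-2.64, adjusted p = 0.116). Kif11 was at 0.0555 to 39.4 CPM in MPP4, against 0.967 to 30.1 CPM in MPP1 (-1.93, adjusted p = 0.106), and Tpx2, the activator of Aurora A, at 0.301 to 29.7 CPM, against 11.1 to 57.5 CPM (-1.67, adjusted p = 0.0575). In wild type alone, the differences were -0.73 for Ckap2, 0.87 for Kif11 and -0.46 for Tpx2, none past the threshold. The 1013/1013 MPP4 libraries, which enter the average, were at 0.444 and 0.113 CPM for Ckap2 and 0.0555 and 0.263 CPM for Kif11. For Tpx2 they were at 4.77 and 0.301 CPM. Without the high-Cd48 MPP1 libraries 9 members were called higher in MPP4, Ccna2, Aurkb and Cenpa among them, and without the 8 low-Fos libraries 4 (Cdk1, Ccnb1, Ect2, Mad2l1). For both fits the share of all genes called is not given, so these counts are no result about the members. Leaving out MPP1 1013/1013 1 left 3 calls. The 8 T and NK cell markers summed to 287 to 1025 CPM in MPP4, against 74.4 to 486 CPM in MPP1, and the 10 erythroblast markers to 31.02 to 4141 CPM, against 51.6 to 119 CPM; their part in the result was not tested.

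In MPP3, 1 of the 42 members passed against MPP1: Racgap1, the partner of Kif23 in centralspindlin, fell, while 3.11% of all genes were called, 0.75% lower. It was at 50.9 to 96.9 CPM (median 73.9) in MPP3, against 88.0 to 208 CPM (median 136) in MPP1, a log2 difference of -0.998 (SE 0.26, adjusted p = 0.0442). The highest MPP3 library lay above the 2 lowest MPP1 libraries, and the other 7 under all of them. The members with the largest other differences were Ckap2 (-1.65), the contractile ring gene Anln (-1.57), Mki67 (-1.56) and Bub1b (-1.16), none past the threshold. The Racgap1 call was held in 2 of the 16 fits that each left out 1 library. Without the high-Cd48 MPP1 libraries, a fit added after seeing the data, the Racgap1 call was lost and 4 members were called higher: Cdk1 (0.90), Birc5 (0.72), Aurka (0.71) and Mad2l1 (0.64). The share of all genes called in that fit is not given, so this count is no result about the members. The 8 plasma cell markers summed to 521 to 18470 CPM (median 5584) in MPP3, against 0.434 to 730 CPM (median 3.67) in MPP1. The 8 T and NK cell markers summed to 490 to 921 CPM, against 74.4 to 486 CPM. Megakaryocyte and platelet markers went the other way, at 77.9 to 147 CPM, against 314 to 523 CPM. The part of these cell types in the result was not tested.

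**Figure D4:**
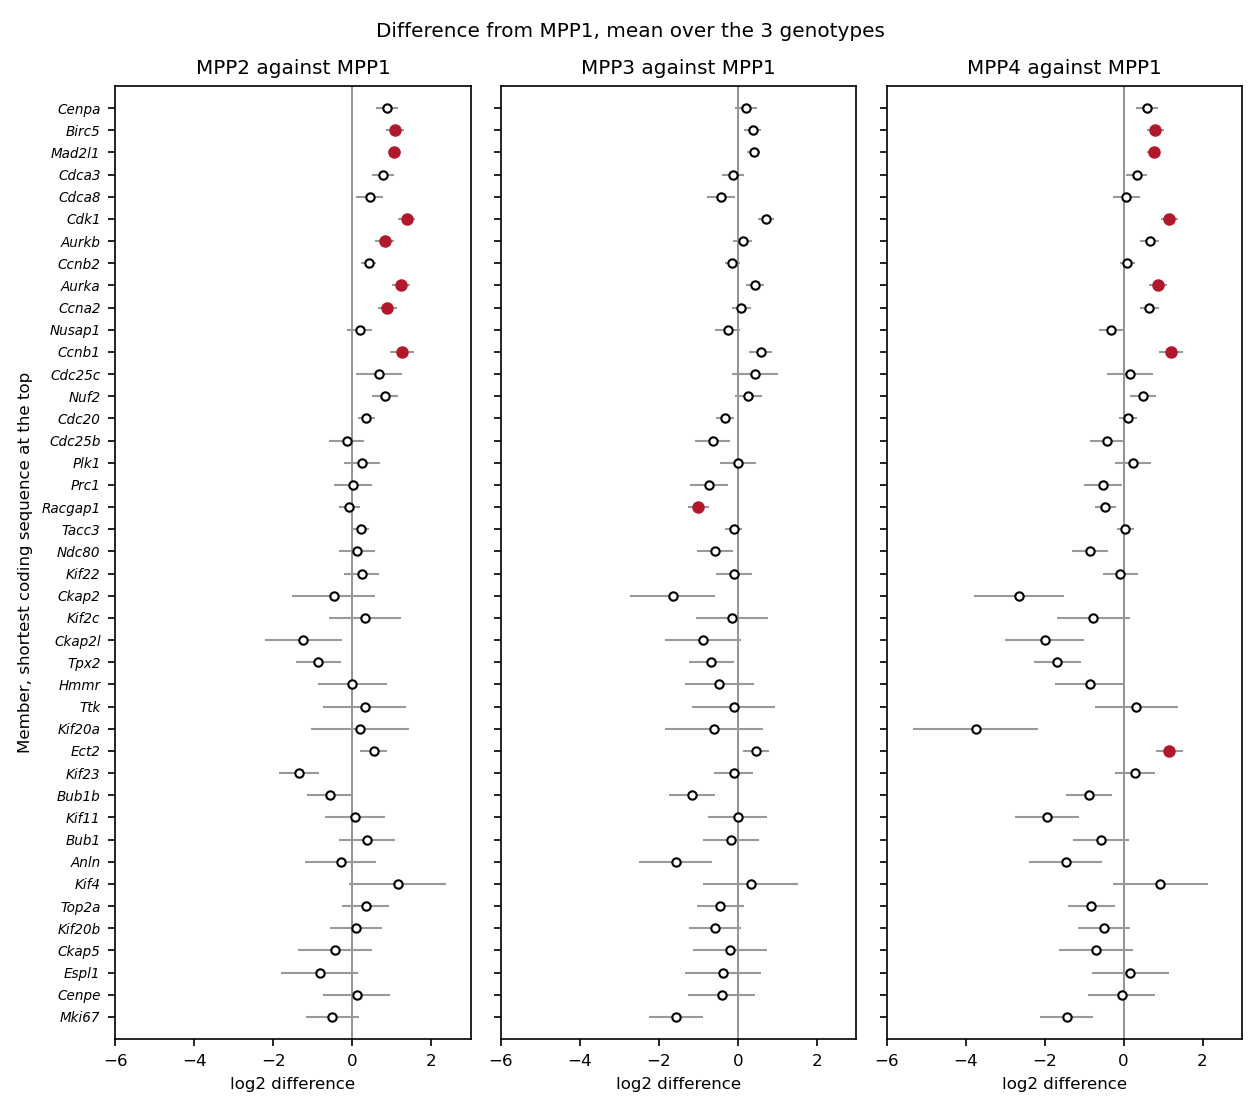
log2 difference of each of the 42 genes in MPP2, MPP3 and MPP4 against MPP1, averaged over genotypes, with bars of 1 standard error; filled red points passed the threshold. Cdk1, Ccnb1, Aurka, Birc5 and Mad2l1 passed in both MPP2 and MPP4, and Racgap1 alone passed in MPP3, downward; the MPP4 point of Kif20a rests on a group at 0 and is no measure of size.

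Between the downstream subsets, no member passed edgeR's test. Against MPP2, MPP3 had 0 of 42 called with 0.798% of all genes called, while 37 of 42 differences were negative with a median of -0.64, beside 0.03 over all genes. Of the 42, 14 had an unadjusted p under 0.05 (33.3%, against 11.5% of all genes), 13 of them lower. DESeq2 called 8, with 6.35% of all genes, and limma-voom 2, with 2.2%. Mad2l1 had the lowest adjusted p, at 272 to 455 CPM in MPP3, against 372 to 978 CPM in MPP2 (-0.66, adjusted p = 0.0574). The largest differences were Anln (-1.28), Kif23 (1.24), Ckap2 (-1.18) and Mki67 (-1.06). In wild type, Kif23 was at 20.2, 6.24 and 14.9 CPM in MPP3, against 14.2, 8.18 and 34.3 CPM in MPP2.

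MPP4 against MPP2 gave 0 of 42 calls with 4.01% of all genes called, 38 negative differences, a median of -0.33, 4 members at an unadjusted p under 0.05 (9.52%, against 15.8% of all genes), and 3 calls with DESeq2 (12.7% of all genes) and 1 with limma-voom (6.95%). Kif23 was at 8.49 to 27.7 CPM (median 20.4) in MPP4, against 0.229 to 34.3 CPM (median 5.91) in MPP2 (1.64, adjusted p = 0.0738). In wild type it was at 22.3, 17.1 and 19.8 CPM in MPP4, against 14.2, 8.18 and 34.3 CPM in MPP2. The +/1013 and 1013/1013 libraries of MPP2 were at 0.229 to 7.84 CPM, so the averaged value reflects them. Kif11 (-2.01) and Ckap2 (-2.17) were on the other side, as was Kif20a, which encodes the motor that carries the passenger complex to the midzone and was at 0 in both 1013/1013 libraries of MPP4, so that its fitted difference is no measure of size. MPP4 against MPP3 gave 0 calls with 0.969% of all genes called, 29 positive differences, a median of 0.23, 7 members at an unadjusted p under 0.05 (16.7%, against 11.3% of all genes) and 0 calls with either other tool. Its largest differences beside Kif20a were Kif11 (-1.93), Ckap2l (-1.12) and Tpx2 (-0.998). In wild type, Kif11 was at 11.7, 24.1 and 39.4 CPM in MPP4, against 14.4, 14.1 and 19.8 CPM in MPP3. The lowest MPP4 values of Kif11 and Ckap2 were those of 1013/1013, at 0.0555 and 0.263 CPM and at 0.444 and 0.113 CPM.

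In wild-type mice alone, with 3 libraries a group, edgeR called 0 of 42 members in MPP2 against MPP1 and 0% of all genes, yet 41 of 42 differences were positive with a median of 0.73, beside 0.00 over all genes. Of the 42, 6 had an unadjusted p under 0.05 (14.3%, against 4.20% of all genes), all higher, and DESeq2 and limma-voom called 0. Cdk1 was at 227, 379 and 401 CPM in wild-type MPP2, against 224, 114 and 161 CPM in wild-type MPP1, and Mad2l1 at 421, 491 and 480 CPM, against 346, 210 and 230 CPM. The groups did not overlap for either gene, and the highest MPP1 value was that of the high-Cd48 library. How many of all genes separate in this way between groups of 2 or 3 libraries was not counted, here or below. Without the high-Cd48 library the calls stayed at 0 and the median was 0.81. The largest fitted differences were those of Kif4 (2.69), Kif2c (1.87), Kif11 (1.56) and Kif20b (1.28), motors at low levels, with adjusted p between 0.992 and 1.

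MPP3 against MPP1 in wild type also gave 0 of 42 calls, with 0.102% of all genes called, 22 positive and 20 negative differences, 2 members at an unadjusted p under 0.05 (4.76%, against 8.15% of all genes), 0 calls with limma-voom and 1 with DESeq2, Mki67, where it called 3.46% of all genes. Mki67 was at 0.473, 0.304 and 0.938 CPM in wild-type MPP3, against 3.68, 9.82 and 4.26 CPM in wild-type MPP1 (-3.36, adjusted p = 0.518), and the groups did not overlap. The next largest were Anln (-2.00), Kif20b, a cytokinesis motor (-1.76), and Hmmr, a spindle-associated hyaluronan receptor (-1.55). MPP4 against MPP1 in wild type gave 0 of 42 calls, with 0.76% of all genes called, 31 positive differences, a median of 0.27, 3 members at an unadjusted p under 0.05 (7.14%, against 8.75% of all genes) and 0 calls with either other tool. Its largest differences were Kif4 (1.74), Ckap2l (-1.60), Espl1, which encodes separase (1.55), and Ccnb1 (1.08, adjusted p = 0.534). Without the high-Cd48 library, the wild-type medians were 0.06 in MPP3 and 0.41 in MPP4, with 0 calls in each.

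Genes that act with the members were counted beside them, in 8 lists that hold 228 tested genes. In MPP2 against MPP1, where 5.01% of all genes were called higher, 17 of 56 genes of G1/S and DNA replication rose and none fell, with Tk1 at 1.18, Gmnn at 1.06 and Pcna at 0.85. Of 40 other kinetochore and checkpoint genes 8 rose, among them Cenpi (1.28), Cenpl (1.09) and Bub3 (0.62), of 18 genes of the anaphase-promoting complex and its E2 enzymes 4 (Anapc10, 0.96), of 19 G2 entry genes 3 (Cks2, 1.27, Cks1b, 1.04, and Chek1, 0.73), and of 43 other spindle and cytokinesis genes 3 (Shcbp1, 1.05, Pbk, 0.95, and Pimreg, 0.87). Of 22 condensin and cohesin genes 1 rose (Cdca5, 0.75) and of 13 genes of DREAM, B-Myb and FoxM1 1 (Rbbp4, 0.56), and none of these lists had a gene that fell. Of 21 genes of quiescence and G1 entry 1 rose, Cdk4 (0.52), and 2 fell, Hlf (-1.31) and Ccnd2 (-0.93). In the last 4 of these lists the share that rose was near that of all genes.

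In MPP4 against MPP1, where 14.7% of all genes were called and 7.59% called higher, 17 of the 56 G1/S genes rose and 2 fell, 7 of 40 kinetochore genes rose and 1 fell, and 8 of the 21 quiescence genes fell and 1 rose, with Cdkn1c, an inhibitor of cyclin-dependent kinases, at -4.33. In MPP3 against MPP1, where 3.11% of all genes were called, 4 of the 56 G1/S genes rose, with Pcna at 0.60, and 3 of the 21 quiescence genes fell. Of the 10 immediate-early genes, 1 fell in MPP2, 4 in MPP3 and 5 in MPP4 against MPP1, where 3, 2 and 3 of the 8 libraries are those with low Fos. Foxm1 and Mybl2, the activators of the G2/M program, did not pass in MPP2 against MPP1 (adjusted p = 0.174 and 1). Foxm1 was at 0 to 23.1 CPM in MPP2, against 0 to 25.01 CPM in MPP1, and Mybl2 at 0 to 39.9 CPM, against 3.91 to 30.8 CPM.

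The study's other axis was the Cxcr4 1013 allele. The Y-linked gene Ddx3y was under 1 CPM in 0 of 8 1013/1013, 3 of 12 +/1013 and 8 of 12 wild-type libraries, so it moved with genotype. With a term for it, edgeR called 0 members in each genotype comparison, and the median of 1013/1013 against wild type was -0.83 in MPP4, -0.40 in MPP2 and -0.21 over all subsets, beside -0.33, -0.21 and -0.19 over all genes. Averaged over subsets, +/1013 against wild type gave 0 of 42 calls by edgeR with 0.0214% of all genes called, 0 members at an unadjusted p under 0.05 (against 4.00% of all genes) and 0 calls with DESeq2 or limma-voom. The differences had a median of -0.08, and the largest were those of the checkpoint kinase genes Ttk (-0.87), Bub1b (-0.69) and Bub1 (-0.65) and of Espl1 (-0.67). Within each subset, +/1013 against wild type gave 0 calls by each of the 3 tools with 0% of all genes called by edgeR, medians of -0.33 in MPP2, -0.14 in MPP3, -0.06 in MPP4 and 0.25 in MPP1, and 1, 2, 0 and 0 members at an unadjusted p under 0.05, beside 4.81%, 3.34%, 2.08% and 1.499% of all genes. The 4 largest differences were Kif23 (-2.43), Hmmr (-1.75), Espl1 (-1.49) and Kif2c (-1.46) in MPP2, Mki67 (2.65), Kif20b (2.31), Cenpe (1.61) and Top2a (-1.55) in MPP3, Kif4 (-1.35), Ttk (-1.34), Espl1 (-1.28) and Ckap5 (-0.92) in MPP4, and Kif4 (1.40), Espl1 (1.17), Kif2c (1.03) and Ttk (-0.98) in MPP1. The 8 plasma cell markers summed to 586 to 800 CPM in +/1013 MPP4, against 13.8 to 27.2 CPM in wild-type MPP4. Their part in the result was not tested.

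Homozygous libraries were compared with wild type in the same way. Averaged over subsets, 1013/1013 gave 0 of 42 calls by edgeR with 0.685% of all genes called; 33 differences were negative with a median of -0.46, beside -0.17 over all genes. Of the 42, 6 had an unadjusted p under 0.05 (14.3%, against 16.4% of all genes). DESeq2 called 3, Kif11, Bub1b and Ect2, all lower, with 12.2% of all genes, and limma-voom 0. Ect2 had the lowest adjusted p (-1.08, SE 0.31, adjusted p = 0.0885), and Bub1b (-1.70, SE 0.55) and Kif11 (-2.27, SE 0.75) followed. Kif20a and Ckap2 (-1.88) were the others among the 4 largest differences. Against +/1013, 1013/1013 gave 0 calls with 0.0428% of all genes called, a median of -0.31, 2 members at an unadjusted p under 0.05 (Kif11, -2.00, and Ect2, -0.67; 4.76%, against 9.11% of all genes), 1 call with DESeq2 (4.89% of all genes) and 0 with limma-voom, and its largest differences beside Kif20a and Kif11 were Ckap2 (-1.75) and Anln (-1.49). Some members were called by edgeR in fits without library MPP2 1013/1013 2 or without the 8 low-Fos libraries, which include it. Each of these fits leaves a lone library in 1013/1013 MPP2, so the calls are not read as results about the members.

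In MPP4, 1013/1013 against wild type gave 0 of 42 calls by edgeR with 0.712% of all genes called, and 14 members had an unadjusted p under 0.05 (33.3%, against 15.8% of all genes). Of the 14, 12 were lower and 2, Birc5 and Cdk1, higher, and the median of the 42 was -0.70, beside -0.12 over all genes. DESeq2 called 8, all lower (Kif11, Anln, Kif20a, Ndc80, Ckap2, Prc1, Bub1, Top2a), beside 13.6% of all genes, and limma-voom 0. The 8 T and NK cell markers summed to 816 and 1025 CPM in 1013/1013 MPP4, against 287 to 431 CPM in wild-type MPP4, without overlap and with 3 and 2 of the 8 at 0 in all libraries of the group. Their part in the result was not tested.

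Kif11 was at 0.0555 and 0.263 CPM in 1013/1013 MPP4, against 11.7, 24.1 and 39.4 CPM in wild-type MPP4 (-7.20, SE 1.96, adjusted p = 0.0824), and at 4.51, 23.9 and 29.8 CPM in +/1013 MPP4. Anln was at 0.388 and 0 CPM in 1013/1013, against 6.84, 12.4 and 26.8 CPM in wild type (-6.32, SE 2.21, adjusted p = 0.162). Kif20a was at 0 in both 1013/1013 libraries, against 4.98, 7.84 and 0 CPM in wild type. With 3 counts a library as the floor, 0.140 CPM, the observed wild-type mean was 30.6-fold above that floor. This value carries no error of the wild-type mean, and edgeR's test did not pass (adjusted p = 0.223). For Kif11 and Anln both 1013/1013 values lay under every wild-type value, and for Kif20a 1 wild-type library was also at 0.

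Members of other roles differed in both directions in MPP4, and none passed. The checkpoint kinase gene Bub1 was at 10.7 and 4.55 CPM in 1013/1013, against 79.3, 54.0 and 93.1 CPM in wild type (-3.31, adjusted p = 0.274), and the midzone gene Prc1 at 10.8 and 10.98 CPM, against 32.8, 53.8 and 80.8 CPM (-2.36, adjusted p = 0.228). Top2a was at 15.0 and 1.43 CPM in 1013/1013, against 26.0, 65.1 and 74.0 CPM in wild type (-2.74, adjusted p = 0.270). None of the 3 overlapped between the groups, a separation whose share over all genes was not counted. The checkpoint gene Mad2l1 was on the other side, at 610.0 and 648 CPM in 1013/1013, against 345, 418 and 487 CPM in wild type, as were Birc5 and Cdk1. Birc5 was at 344 and 459.9 CPM in 1013/1013 MPP4, against 206, 203 and 159 CPM in wild type (1.09, SE 0.39, adjusted p = 0.175), and Cdk1 at 431 and 592 CPM, against 252, 310.0 and 326 CPM (0.79, SE 0.37, adjusted p = 0.306). In these 3 abundant genes both 1013/1013 values lay above every wild-type value.

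In MPP2, 1013/1013 against wild type gave 0 of 42 calls by edgeR with 0.00535% of all genes called, 33 negative differences, a median of -0.85, 5 members at an unadjusted p under 0.05 (Mad2l1, 0.84, and Ccnb1, 1.11, higher; Kif23, -2.52, Bub1b, -2.95, and Tpx2, -2.87, lower; 11.9%, against 11.5% of all genes), 3 calls with DESeq2 (7.17% of all genes) and 0 with limma-voom. Its largest differences were Ckap2l, a spindle gene (-4.14), Kif4 (-3.59), Kif11 (-3.12) and Bub1b. Ccnb1 was at 301 and 285 CPM in 1013/1013 MPP2, against 72.3, 132 and 203 CPM in wild type, and Bub1b at 6.56 and 16.01 CPM, against 61.2, 112 and 89.1 CPM. The groups did not overlap for either gene, one being higher and the other lower in 1013/1013, and the share of all genes without overlap was not counted. The 2 libraries of 1013/1013 MPP2 were unlike each other for many members, such as Prc1 at 1.48 and 68.9 CPM and Cdc25c at 0 and 47.3 CPM. Some members were called by edgeR without the second of them or without the 8 low-Fos libraries. Both fits leave a lone library in this group, so the calls are not read as results about the members.

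In MPP3, 1013/1013 against wild type gave 0 of 42 calls by each of the 3 tools with 0% of all genes called by edgeR, a median of 0.06 and 3 members at an unadjusted p under 0.05 (7.14%, against 4.17% of all genes). Mki67 was at 6.36 and 4.89 CPM in 1013/1013 MPP3, against 0.473, 0.304 and 0.938 CPM in wild type (3.29, adjusted p = 0.973), without overlap, and the next largest were Kif20b (2.56), Ckap2 (-2.11) and Cdc25b (-1.72). In MPP1, it gave 0 of 42 calls by each of the 3 tools with 0.00535% of all genes called by edgeR, a median of -0.10 and 2 members at an unadjusted p under 0.05 (4.76%, against 2.06% of all genes). These were Aurka, at 47.97 and 58.3 CPM in 1013/1013 MPP1, against 154, 52.7 and 89.97 CPM in wild type (-0.90), and Birc5, at 96.2 and 95.1 CPM, against 288, 126 and 105 CPM (-0.86). The 154 CPM of Aurka and the 288 CPM of Birc5 are those of the high-Cd48 library wild type 1, and neither 1013/1013 library has high Cd48. Without the high-Cd48 libraries, MPP1 gave 0 calls for 1013/1013 (median 0.01) and for +/1013 (median 0.22) against wild type. The largest differences in MPP1 were Tpx2 (1.16), Ckap2 (1.06), Cenpe (1.06) and the chromokinesin gene Kif22 (-1.02).

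Whether the genotype acted differently in MPP4 was tested as its effect there minus its mean effect in the other subsets. For 1013/1013 this gave 0 of 42 calls by edgeR with 0.102% of all genes called, a median of -0.44, 5 members at an unadjusted p under 0.05 (11.9%, against 8.22% of all genes), 3 calls with DESeq2 (5.51% of all genes) and 0 with limma-voom, and the lowest adjusted p was that of Kif11 (-6.57, adjusted p = 0.290), followed by Anln (-6.22, adjusted p = 0.429) and Birc5 (1.18, adjusted p = 0.471). Beside Kif20a, the largest differences were those of Kif11, Anln and Ckap2 (-4.20, adjusted p = 0.724). For +/1013 it gave 0 calls by each of the 3 tools with 0% of all genes called by edgeR and 0 members at an unadjusted p under 0.05, with Kif20a (1.45), Kif4 (-1.44), Ckap2l (1.41) and Ckap2 (1.36) the largest. The test of any subset-by-genotype interaction gave 0 calls by each of the 3 tools with 0.0321% of all genes called by edgeR, and 3 members at an unadjusted p under 0.05 (Birc5, Kif11, Mad2l1; 7.14%, against 4.92% of all genes).

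Several of these differences moved with gene length, for members and other genes alike. In MPP4, the median log2 difference of 1013/1013 against wild type was 0.53 over the 6 members with coding sequences under 1000 bases, -0.31 over the 17 of 1000 to 2000, -1.78 over the 8 of 2000 to 3000 and -2.01 over the 11 longer ones. Over other genes with a mean of at least 10 CPM, the same classes had medians of 0.40, -0.34, -1.34 and -1.49. In MPP2 the members' medians were 0.20, -0.30, -1.43 and -1.14, and those of the other genes 0.37, -0.24, -0.82 and -0.98. The steepest slopes of level on length were those of MPP2 1013/1013 1 (-0.85) and MPP4 1013/1013 2 (-0.84), followed by MPP2 +/1013 3 (-0.75) and MPP4 1013/1013 1 (-0.56).

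With a smooth length trend of each library taken out, the median of the members in 1013/1013 against wild type was -0.11 in MPP4, -0.40 in MPP2 and -0.23 over all subsets, and edgeR called 0 members in each. The comparisons of subsets with MPP1 kept most calls under that correction: 7 in MPP2 (Ect2, 1.14, called and Aurkb not) and 6 in MPP4 (Ccna2, 0.71, called and Birc5 not), while Racgap1 was not called in MPP3. In MPP2 against MPP1 the members' medians by length class were 0.97, 0.25, 0.10 and 0.08, and those of the other genes 0.32, -0.13, -0.59 and -0.79.

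**Figure D5:**
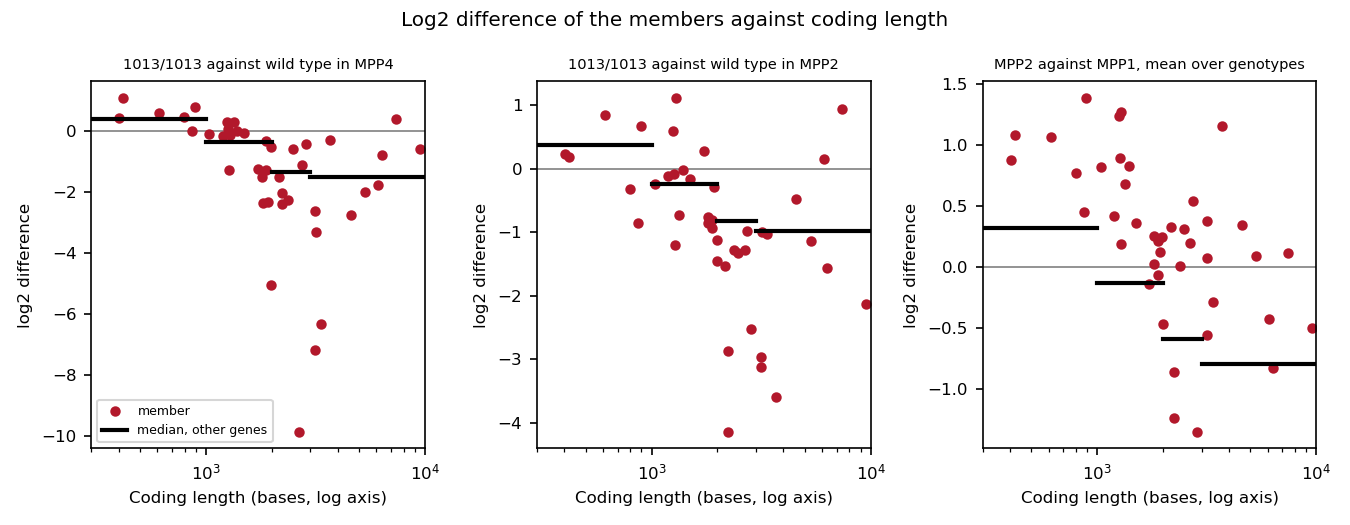
log2 difference of each of the 42 genes (points) against coding length (log axis), in 1013/1013 against wild type in MPP4 and in MPP2 and in MPP2 against MPP1; black lines are medians of other genes with a mean of at least 10 CPM in each length class. In the genotype panels points and lines fall with length, and in MPP2 against MPP1 the points lie mostly above the line.

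The upstream activators were compared in the same genotype fits. Foxm1 was at 0 and 0.0376 CPM in 1013/1013 MPP4, against 8.83, 9.95 and 30.3 CPM in wild-type MPP4 (adjusted p = 0.243), and at 0 in both 1013/1013 libraries of MPP2, against 9.12, 6.79 and 8.25 CPM in wild-type MPP2 (adjusted p = 0.345). The groups did not overlap in either subset, but the share of all genes without overlap was not counted, and no test passed. Mybl2 was at 5.16 and 0 CPM in 1013/1013 MPP4, against 7.22, 16.2 and 16.6 CPM in wild type (-2.37, adjusted p = 0.589). Of the 228 genes around the program, 3 passed in 1013/1013 against wild type averaged over subsets (1.32%, beside 0.685% of all genes): the spindle and cytokinesis genes Arhgap11a and Haus7 (-0.60) fell and Anapc10 (0.78) rose. In MPP4 the same contrast called Arhgap11a, which had no count in either 1013/1013 library, the cohesin release factor Wapl (-2.67), the E2F partner Tfdp2 (-3.85) and Anapc1 (-2.64), all lower (1.75%, beside 0.712% of all genes). Cxcr4, whose tail the allele truncates, was itself at 0.99 in 1013/1013 against wild type averaged over subsets (adjusted p = 0.177), a level that does not check which allele a library carries.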

How the data were processed

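RNA from 32 pools of sorted progenitors was sequenced after SMART-Seq v4 amplification, and each gene's raw counts were deposited by the authors. Per the submitters' processing notes, STAR, HTSeq and the mm10 build were used; versions and the strand setting are not given in the sources used here, so genes that overlap on opposite strands cannot be separated. The members and the gene lists were chosen with earlier results of these data known. A further 64 per-sample columns were not used, and 3883 genes had no count.

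Groups came from the labels. Counts were fitted with edgeR 4.0.16 (R 4.3.3): filterByExpr on the 12 groups, TMM factors, 1 coefficient per group, trended dispersion and quasi-likelihood F-tests with 20 residual degrees of freedom, adjusted by Benjamini-Hochberg over 18676 genes, with 0.05 as threshold. SE is the log2 difference over the root of F. The script was tested on simulated counts. Alternatives were RLE size factors, no filter, DESeq2 1.42.0, limma-voom (limma 3.58.1), a replicate block, terms for or removal of library subsets, leaving out each library, and, added after seeing the data, a length trend and removal of the high-Cd48 MPP1 libraries. Transcript and coding lengths are those of each gene's principal transcript in GENCODE M21, and promoter sequences are from RefSeq.

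Members named in a comparison are those past the threshold, or, where fewer than 4 passed, the 4 with the largest differences as well; values by library are for chosen representatives of each role. Counts per library were 13016038 to 37050983, with replicate rank correlations of 0.839 to 0.949 and no identical pair. Amplified reads are not independent molecules, so the 3-count floor covers counting error only.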

Additional observations from a re-analysis of the deposited data

How the results depend on the processing

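In all 11 other settings and in each fit that left out a library, Cdk1 and Mad2l1 were called higher in MPP2 and MPP4 against MPP1, Aurka and Birc5 in MPP2, and Ccnb1 in MPP4. The least stable calls were Racgap1 in MPP3, held in 2 of 16 fits without a library and in 4 of 11 other settings, and Aurkb in MPP2, held in 6 and 4. Leaving out 1 library at a time, calls ranged 4 to 10 for MPP2 against MPP1 (4 without MPP1 1013/1013 1 or 2), 0 to 3 for MPP3, 3 to 9 for MPP4 (3 without MPP1 1013/1013 1), 0 to 2 for MPP3 and for MPP4 against MPP2, 0 to 9 for 1013/1013 against wild type, 0 to 6 against +/1013, 0 to 8 in MPP2, 0 to 1 in MPP4, for its effect difference and for the interaction, and 0 in the rest. The highest counts for 1013/1013 came without MPP2 1013/1013 2, which leaves a lone library assumed to vary like the other groups.

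With DESeq2, calls were 2 for MPP3 and 12 for MPP4 against MPP1, 1 for MPP3 against MPP1 in wild type, 8 for MPP3 and 3 for MPP4 against MPP2, 3 for 1013/1013 against wild type, 1 against +/1013, 3 in MPP2, 8 in MPP4 and 3 for the effect difference. Limma-voom gave 2 for MPP3 against MPP1, 2 for MPP3 and 1 for MPP4 against MPP2. Without the libraries whose number is a multiple of 3, calls were 0 for MPP3 against MPP1, 1 for MPP3 and 2 for MPP4 against MPP2, 7 for 1013/1013 against wild type, 4 against +/1013, 7 in MPP2, 1 for the effect difference and 1 for the interaction. A term for library numbers from 46 gave 4 calls for MPP2 and 0 for MPP3 against MPP1. MPP3 against MPP1 also had 0 with no filter, with terms for multiples of 3 or low Ddx3y and with the length trend, and 4 without the high-Cd48 MPP1 libraries. MPP3 against MPP2 had 1 with the length trend and 3 without the high-Cd48 libraries. The cause of these changes was not tested. Shares of all genes called are not given for the settings with a term or without some libraries. They are also not given for DESeq2 and limma-voom in the comparisons with MPP1 averaged over genotypes. Those counts of members are therefore no result about the members.

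Direction was compared across settings only for the members named in each comparison, not for the other members. The median of the 42 members in MPP2 against MPP1, 0.25 in the main fit, was negative without the low-Fos libraries, as given above. Among the named members, log2 differences turned direction for 6 results, none of them called. Ckap2 in MPP3 against MPP2 was 1.61 without the multiples of 3 and ran between -3.44 and 1.41 (highest without MPP2 1013/1013 2) with a library left out, and Mki67 there was 0.064 and between -1.39 and 0.40 (same library). Ckap2 in MPP4 against MPP2 was 0.49 and between -2.60 and 0.41 (same library). Ckap2l in MPP4 against MPP3 was 0.070 with limma-voom and between -1.47 and 2.12 (highest without MPP3 1013/1013 1). Ckap2 in 1013/1013 MPP1 ran between -0.085 (without MPP1 1013/1013 2) and 1.68, and Kif20a in the +/1013 effect difference was -1.11 without the multiples of 3 and between -0.75 (without MPP4 +/1013 2) and 2.22. Summed levels moved to 2567 CPM (library totals) and 2479 CPM (RLE) in MPP1 1013/1013, 2720 CPM in MPP3 1013/1013 and 3368 CPM in MPP4 1013/1013 (library totals).

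The replicate block gave 8, 1 and 8 calls for MPP2, MPP3 and MPP4 against MPP1 and 0 elsewhere. The labels do not say that a number marks a shared source, and 40 of 160 same-number pairs had deviations correlated over 0.1 (-0.16 to 0.23), so the numbers were not taken to pair libraries. As a hint from the data, not the design, 21 of 32 libraries correlated best with their own number, and replicate 3 of MPP2, MPP3 and MPP4 in +/1013 and wild type makes up 6 of the 8 low-Fos libraries. With 2 libraries in each 1013/1013 group, and many long members under a few CPM, single libraries weigh heavily, and a difference that did not pass is not shown to be absent.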
